A study of Mus musculus with 56 samples.

Results

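The genes described here are the keratins and the cell junction genes of mouse keratinocytes, the main cells of the epidermis, followed through treatment with transforming growth factor β1 (TGF-β1). Members were taken by symbol. Keratins are symbols of the form Krt with a number, and junction genes are the desmosomal (Dsg, Dsc, Dsp, Pkp, Jup), cadherin and catenin (Cdh1, Cdh3, Ctnna, Ctnnb, Ctnnd), nectin, claudin, Ocln, Tjp, F11r, connexin (Gja, Gjb), polarity (Pard) and Epcam symbols, with Tacstd, Evpl, Perp, Crb3 and Cgn searched as well. This gave 55 genes, 19 keratins and 36 junction genes, of 6795 named genes on the arrays. Krt14, Krt1, Krt18, Dsp and Dsc2 were not analysed here, and 6 probes whose annotation lists several symbols were not used.

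Cells were isolated from newborn mice and were either primary keratinocytes or keratinocytes transduced on day 3 of culture with a replication-defective retrovirus carrying Ha-ras, called ras keratinocytes. Balb/c cells (50 arrays) received TGF-β1 at 1 ng/ml, and RNA was taken after 1, 6, 24 or 48 h. Cells of Smad3+/+ and Smad3-/- mice of the strain labelled C57B1/SVJ (6 arrays) were treated for 48 h. Smad3 passes the signal of the TGF-β receptors to genes. Each array held treated RNA and untreated RNA of the same kind of cells, so every value is a log2 ratio, treated over untreated. No untreated primary culture was set against an untreated ras culture, and levels cannot be read from ratios, so the identity of the cells was not checked against marker levels. The 49 arrays with treated RNA in the Cy5 dye were used. For Balb/c cells these were 6, 7, 6 and 3 arrays of primary cells and 6, 7, 6 and 4 arrays of ras cells at 1, 6, 24 and 48 h, and 4 were Smad3 arrays. No label ties an array to a culture of its own, so the spread behind each p-value may be technical.

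Keratins are the intermediate filament proteins of epithelia. Basal keratinocytes carry the pair of Krt5 and Krt14, cells that leave the basal layer turn on Krt1 and Krt10, wounded or hyperproliferative epidermis turns on Krt6, Krt16 and Krt17, and Krt8, Krt18 and Krt19 belong to simple epithelia. Desmosomes anchor keratin filaments at the membrane, adherens junctions join cadherins to actin through catenins, tight junctions seal the space between cells through claudins, and gap junctions are channels made of connexins. TGF-β is known as a factor under which many epithelial cells lose junctions and take up mesenchymal features.

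The promoters of 4 of the members called at 24 h are shown. Gjb2 and Gjb6 fell together in ras cells, Krt8 was higher in ras cells, and Cldn4 was higher in both kinds of cells. Other members called at 24 h, among them Krt23 and Gja1, are not shown. Each is the 250 bases before the annotated start in RefSeq (build GRCm38.p6), 5′ to 3′ on the strand of the gene, which is the minus strand for all 4. Gjb2 lies at chr14:57104703-57104952, Gjb6 at chr14:57133612-57133861, Cldn4 at chr5:134946935-134947184 and Krt8 at chr15:102004343-102004592. Capitals mark the AP-1 motif TGANTCA and the GC box GGGCGG, searched on both strands.
Gjb2: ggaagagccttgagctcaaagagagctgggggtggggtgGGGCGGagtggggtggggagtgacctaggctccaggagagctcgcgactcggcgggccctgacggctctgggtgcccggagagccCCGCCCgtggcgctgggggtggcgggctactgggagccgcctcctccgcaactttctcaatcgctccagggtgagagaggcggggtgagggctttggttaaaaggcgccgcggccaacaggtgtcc
Gjb6: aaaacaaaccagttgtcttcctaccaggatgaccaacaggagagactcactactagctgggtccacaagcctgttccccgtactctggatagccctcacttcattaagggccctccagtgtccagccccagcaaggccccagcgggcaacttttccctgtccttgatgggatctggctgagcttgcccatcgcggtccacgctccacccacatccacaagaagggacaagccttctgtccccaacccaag
Cldn4: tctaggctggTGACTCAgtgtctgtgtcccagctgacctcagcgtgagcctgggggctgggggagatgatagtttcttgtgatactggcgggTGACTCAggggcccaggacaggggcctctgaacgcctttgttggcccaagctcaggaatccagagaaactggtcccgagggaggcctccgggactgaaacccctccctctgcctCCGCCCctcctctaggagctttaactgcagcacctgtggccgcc
Krt8: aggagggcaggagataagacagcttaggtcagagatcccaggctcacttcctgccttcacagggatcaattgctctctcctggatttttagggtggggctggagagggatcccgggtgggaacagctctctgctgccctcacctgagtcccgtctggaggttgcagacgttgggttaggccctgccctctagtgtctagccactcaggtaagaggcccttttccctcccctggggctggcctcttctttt
Cldn4 holds 2 AP-1 motifs and 1 GC box, Gjb2 holds 2 GC boxes, and the Gjb6 and Krt8 windows hold neither motif. The AP-1 motif occurs in 6.73% of the 32536 RefSeq promoters of this length and the GC box in 33.0%. Of the 39 members with an entry, 4 hold the AP-1 motif and 20 the GC box. The palindromic SMAD motif GTCTAGAC is in 0.169% of promoters and in 0 of the 39 members, and the shorter SMAD motif CAGACA is in 17.0% of promoters and in 8 members. The E-box CANNTG is in 66.2% of promoters and in 31 members. These are matches of letters in a short window and say nothing of whether a factor binds there.

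No member was called at 1 h or in primary cells at 6 h, and most calls fell at 24 and 48 h. Member means still ran from -0.38 to 1.11 at 1 h in primary cells and from -0.75 to 1.64 in ras cells. At 6 h in primary cells they ran from -0.98 to 0.36. A call is an adjusted p under 0.05 (limma, Benjamini-Hochberg over 8905 features). In primary cells 0 of 55 members were called at 1 h and 0 at 6 h, where 0.0112% of all features were called at each time, and 2 and 9 members had an unadjusted p under 0.05, as did 5.39% and 9.41% of all features. At 24 h 2 keratins fell, 1 junction gene rose and 2 fell, where 1.35% of all features were called (0.348% higher, 0.999% lower). At 48 h 5 keratins fell and 0 rose, while 3 junction genes rose and 5 fell, where 8.64% of all features were called (5.2% higher, 3.44% lower). In ras cells 0 members were called at 1 h (0.0786% of all features, 0.0674% higher and 0.0112% lower), with 6 at an unadjusted p under 0.05, where 7.04% of all features were. At 6 h 4 junction genes rose, 1 fell and 0 keratins were called (1.72% of all features, 1.36% higher and 0.359% lower). At 24 h 1 keratin rose and 2 fell, and 2 junction genes rose and 3 fell (10.5% of all features, 3.92% higher and 6.63% lower). At 48 h 1 keratin fell, 1 junction gene rose and 1 fell (3.56% of all features, 1.97% higher and 1.59% lower). Every Balb/c 48 h array has an mAdb experiment ID, a database number in its title, above 39000, while the earlier times hold arrays on both sides. At 48 h time and ID set thus cannot be told apart.

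In all, 24 members were called in at least 1 response, 10 keratins and 14 junction genes, and 0 were called in both directions. Of all features 20.7% were called in at least 1 response. The median log2 ratio of the keratins in primary cells was -0.08, -0.16, -0.31 and -0.67 at 1, 6, 24 and 48 h, and in ras cells it was -0.03, 0.17, -0.03 and -0.36. The junction medians were -0.03, 0.00, -0.08 and -0.17 in primary cells, while ras medians were 0.06, 0.06, 0.04 and 0.08. The median of all features lay between -0.04 and 0.01. Leaving out primary 48 h replicate 2 left 0 keratins and 2 junction genes called at 48 h in primary cells, and with that group fitted alone 0 members were called.

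Most of the 34 calls depend on how the arrays were handled. Gjb2 at ras 24 h was the 1 call that held under every alternative run, and Gjb6 at ras 24 h was lost only with the group fitted alone (adjusted p = 0.0788). Fitting each group alone ended 30 calls and left those of Gjb2 at ras 24 h and of Cldn4, Epcam and Gjb5 at ras 6 h. Adding the dye-reversed arrays with the sign turned and a term for dye ended 15 calls, all but Gja1, Krt79 and Cldn4 at primary 24 h and Nectin1 at primary 48 h being in ras cells. Adding them at their deposited sign ended 12 of the 13 calls at primary 48 h, Nectin1 excepted, with those 12 means between -0.345 and 0.48. The 10.5% of all features called at ras 24 h became 3.48% without the 2 arrays of widest spread, 3.39% with arrays scaled to 1 spread and 1.71% with reversed arrays turned.

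**Figure D1:**
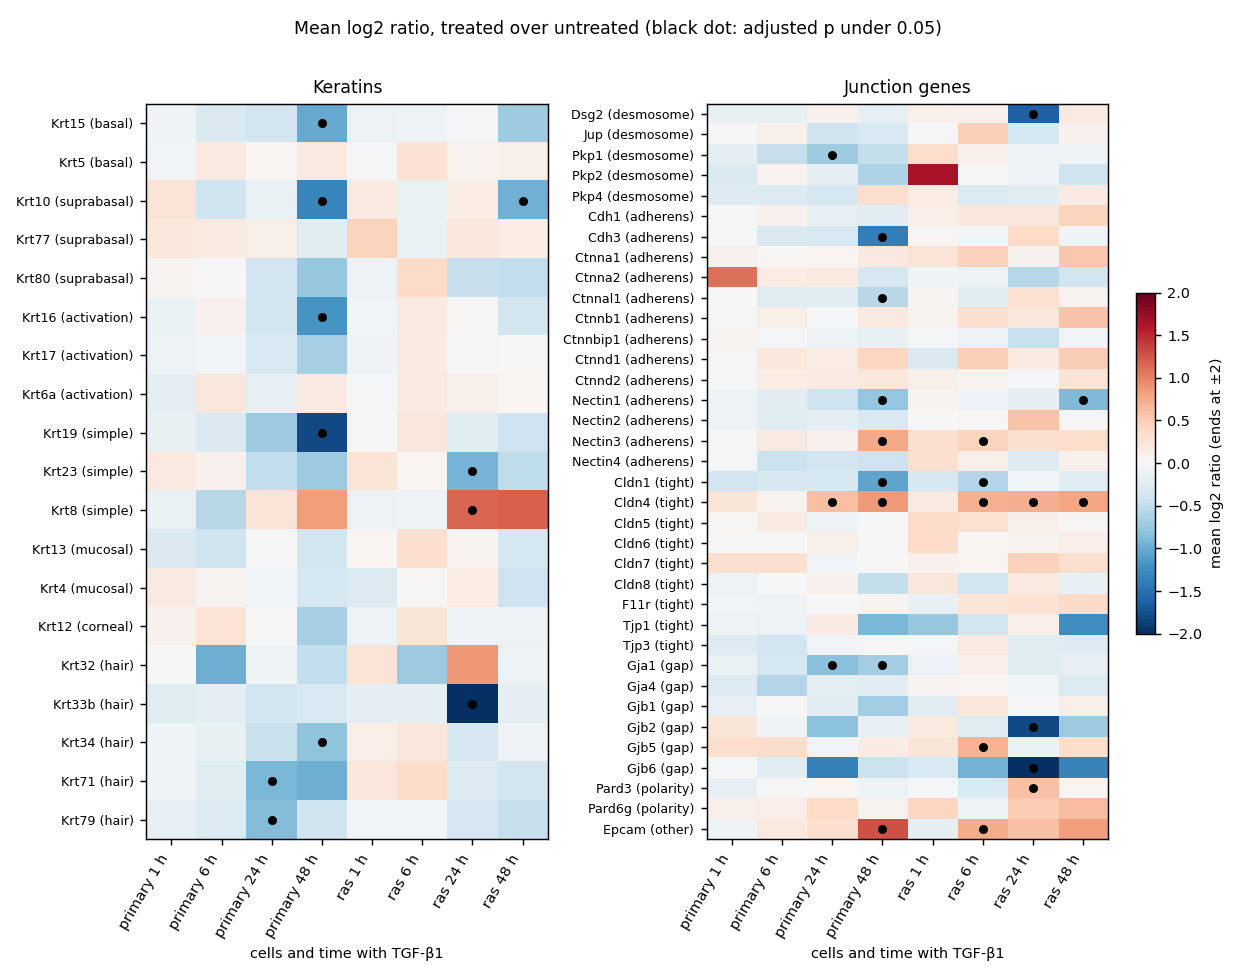
Mean log2 ratio, treated over untreated, of the 19 keratins (left) and 36 junction genes (right) in the 8 responses, with the role of each gene in brackets; colours end at ±2 and a black dot marks an adjusted p under 0.05. Dots among the keratins are mostly blue and lie at 24 and 48 h, and the Cldn4 row has 5 red cells with a dot.

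Among the simple epithelial keratins, Krt8 was higher and Krt19 and Krt23 were lower. Krt8 rose in ras cells at 24 h, where its log2 ratio was above 0 on 6 of 6 arrays, with a lowest value of 0.55, a median of 0.89 and a highest of 2.07. The mean was 1.17 (SE 0.32, limma adjusted p = 0.0187), a fold of 2.24, and the 2 arrays at 1.93 and 2.07 stood above the others, which ended at 0.90. That pair has the mAdb experiment IDs (database numbers in the titles) above 39000, a boundary chosen after the values were seen, and the 4 arrays with lower IDs alone gave a mean of 0.75 (limma adjusted p = 0.189). Without replicate 6 or without replicate 7 the call was lost (adjusted p up to 0.0692). After 48 h Krt8 read 0.60, 2.08, 0.82 and 1.30 in ras cells, a mean of 1.20 (SE 0.39) with an adjusted p of 0.073. Primary cells read 0.99, 1.34 and 0.16 at 48 h, and at 24 h 5 of the 6 arrays lay between -0.47 and 0.24 with the sixth at 2.10. All 4 ras arrays at 48 h were thus above 0, with a wide spread.

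Krt19, a keratin of simple epithelia and of the hair follicle bulge, had the lowest mean of any keratin in primary cells. At 48 h the 3 arrays read -0.61, -3.57 and -1.22. The mean was -1.80 (SE 0.30, limma adjusted p = 6.26e-05), a fold of 3.48 lower. All 3 values were below 0, and the second was far below the others: without replicate 2 the mean was -0.91 and the adjusted p 0.0589. The reversed arrays of this group, replicates 3 and 4, read 2.36 and 1.35 at their deposited sign. At 24 h in primary cells the lowest, median and highest values were -1.28, -0.74 and -0.33, all 6 below 0, and the mean of -0.73 (SE 0.21) missed the threshold (adjusted p = 0.0732). In ras cells Krt19 read 0.14, -0.78, -0.82 and -0.18 at 48 h, overlapping the primary range, with a mean of -0.41 (adjusted p = 0.42).

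Krt23, a type I keratin of simple and glandular epithelia, fell in ras cells at 24 h. Its lowest, median and highest values were -1.30, -0.98 and -0.48, below 0 on 6 of 6 arrays. The mean was -0.92 (SE 0.18, limma adjusted p = 0.00148), and the call held without each array in turn (adjusted p up to 0.00868). Primary cells at 24 h had values from -1.28 to -0.11 with a median of -0.36, also all below 0, and the mean of -0.49 was not called (adjusted p = 0.234). At 48 h Krt23 read -0.32, -1.32 and -0.53 in primary cells, while ras arrays read -1.35, -0.89, 0.07 and 0.13. The ras values at 48 h lay on both sides of 0.

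Krt10, the type I keratin of the spinous layer, was lower at 48 h in both kinds of cells. In primary cells it read -1.78, -1.63 and -0.52, with a mean of -1.31 (SE 0.32, limma adjusted p = 0.00552). The call was lost without replicate 1 or without replicate 2 (adjusted p up to 0.113). In ras cells it read -1.15, -0.21, -2.18 and -0.29, with a mean of -0.96 (SE 0.27, limma adjusted p = 0.0401). That call was lost without replicate 1 or without replicate 3, where the mean was -0.55 (adjusted p = 0.44). With the reversed arrays turned and a dye term it was -0.53 (adjusted p = 0.588). All 7 values were below 0 and the groups overlapped. At 24 h Krt10 ran from -0.41 to 0.27 in primary cells and from -0.86 to 1.31 in ras cells. Of the other suprabasal keratins, Krt80 read -0.83, -0.48 and -0.95 at 48 h in primary cells (mean -0.75, adjusted p = 0.0801) and Krt77 had a mean of -0.22.

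Krt15, a keratin of basal cells and follicle stem cells, read -0.69, -1.86 and -0.50 at 48 h in primary cells. Its mean was -1.02 (SE 0.26, limma adjusted p = 0.00959), which became -0.59 without replicate 2 (adjusted p = 0.391). Ras cells at 48 h read -0.60, -0.38, -1.61 and -0.25, all below 0, with a mean of -0.71 (adjusted p = 0.0708). At 24 h in primary cells all 6 values were below 0, from -0.72 to -0.05, and in ras cells they ran from -0.44 to 0.69. Krt5, the other measured basal keratin, stayed near 0, with group means from -0.05 to 0.28 over the 8 responses. Its values at 48 h were 0.27, 0.08 and 0.18 in primary cells, while ras arrays read 0.30, -0.13, 0.23 and 0.04. Over the 49 arrays used, the Krt5 ratio had a median absolute difference of only 0.031 from that of Eef1a1, a translation elongation factor. Whether the ratio reports a response of Krt5 itself was not tested.

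The activation keratins gave 1 call that rests on 1 of the arrays used. Krt16 read 0.03, -3.70 and 0.14 at 48 h in primary cells, with a mean of -1.18 (SE 0.34, limma adjusted p = 0.0237). Without replicate 2 the mean was 0.09 (adjusted p = 0.935), and the sign turned. Krt17 read 0.23, -1.98 and -0.25 there and was low on the same array, without a call (adjusted p = 0.0707). Krt6a read 0.25, 0.07 and 0.19. The reversed primary 48 h arrays, replicates 3 and 4, read 1.89 and 0.14 for Krt16 and 1.97 and 1.43 for Krt17 at their deposited sign. The means of Krt16, Krt17 and Krt6a in ras cells at 48 h were -0.37, -0.0025 and 0.04, none of them called.

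Hair and follicle keratins gave calls at 24 h in primary cells. Krt71, a type II keratin of the inner root sheath, had a lowest, median and highest value of -1.85, -0.59 and -0.54. All 6 were below 0, the mean was -0.92 (SE 0.24, limma adjusted p = 0.033), and the call was lost without replicate 4 or without replicate 6 (adjusted p up to 0.29). Krt79, found in the duct and infundibulum of the follicle, ran from -1.63 through a median of -0.69 to -0.39. Its mean was -0.86 (SE 0.22, limma adjusted p = 0.0362), and the call held only without replicate 2. Krt71 had a mean of -0.26 and Krt79 of -0.33 in ras cells at 24 h, neither called. At 48 h in primary cells Krt71 read -1.14, -1.86 and 0.08 (adjusted p = 0.0626), and Krt34, a hair shaft keratin, read -0.17, -1.15 and -1.11. The mean of Krt34 was -0.81 (SE 0.23, limma adjusted p = 0.0212), and the call was lost without replicate 2 or without replicate 5 (adjusted p up to 0.297).

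Krt33b, another hair shaft keratin, was called in ras cells at 24 h with values of -9.82, -0.25, -0.26, -0.83, -0.86 and -0.99. The mean was -2.17 (SE 0.57, limma adjusted p = 0.0138), and replicate 1 was far below the others. Without replicate 1 the mean was -0.64 (SE 0.18, limma adjusted p = 0.0447), so the call held at a smaller size. It was lost with array weights (-0.68, adjusted p = 0.089) and with the reversed arrays turned and a dye term (-1.45, adjusted p = 0.19). All 6 values were below 0. The remaining 9 keratins were called in none of the 8 responses. Their means ran from -0.98 for Krt32 in primary cells at 6 h to 0.87 for the same gene in ras cells at 24 h. Both means were drawn out by replicate 7 of the group. It read -6.45 at primary 6 h, with the others from -0.36 to 0.14, and 3.36 at ras 24 h, with the others from 0.01 to 1.11.

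**Figure D2:**
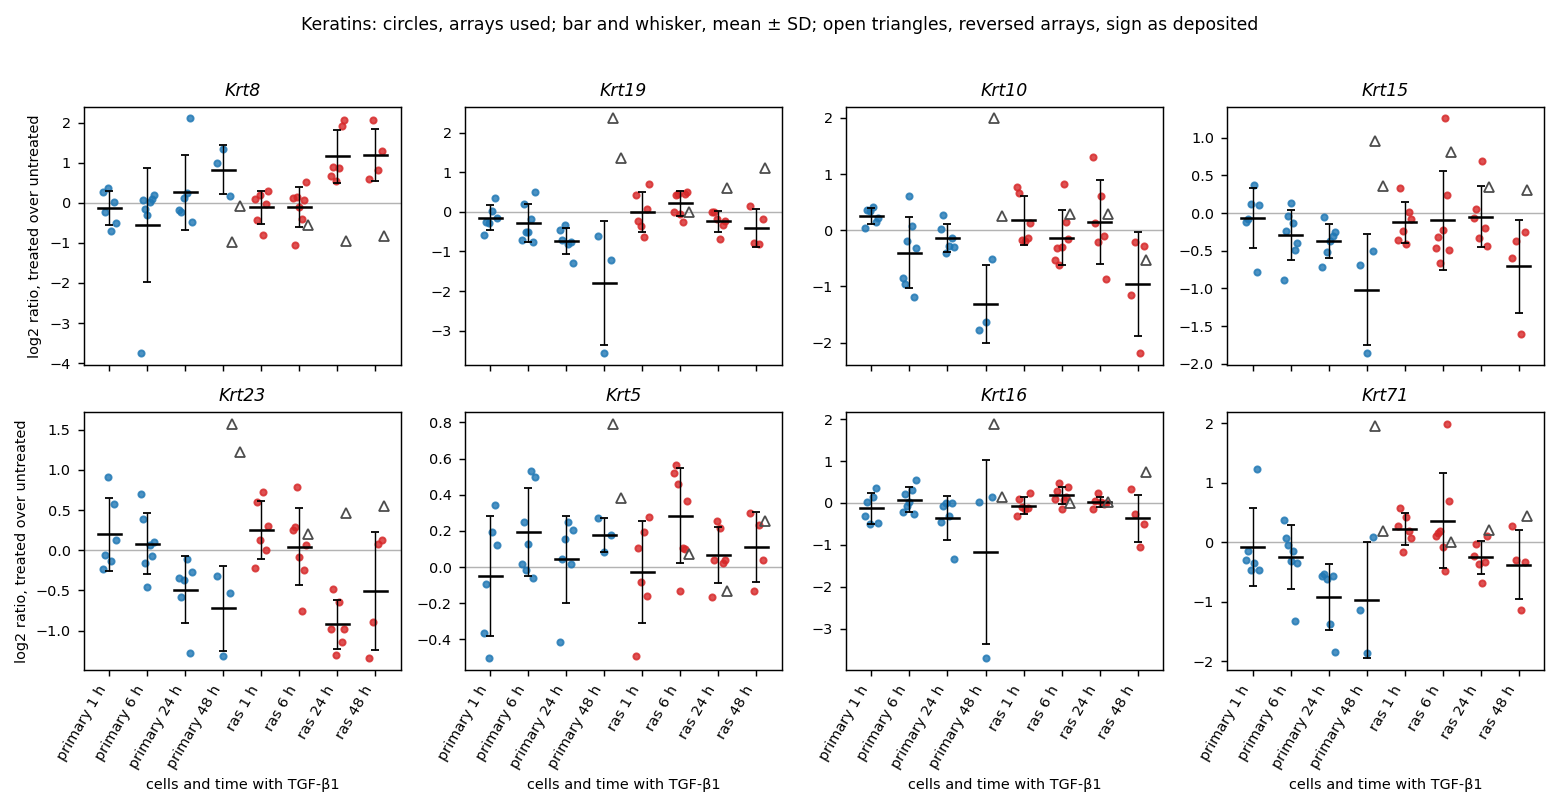
Log2 ratio, treated over untreated, of 8 keratins on every Balb/c array (blue, primary; red, ras), with the mean and SD of each group over the arrays used; open triangles are the 5 reversed arrays at their deposited sign. Krt8 lies above 0 on all ras arrays at 24 and 48 h other than the reversed ones, and primary 48 h replicate 2 is the low point of Krt19 (-3.57) and Krt16 (-3.70).

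Among the gap junction genes, 2 connexins fell together in ras cells at 24 h. Gjb2 encodes connexin 26 and Gjb6 connexin 30, partners in channels of the epidermis and inner ear, and their promoters are printed above. Gjb2 read -1.70, -1.13, -1.71, -2.10, -2.35 and -1.89, and Gjb6 read -2.24, -1.77, -1.15, -1.41, -2.84 and -2.62. All 12 values were below -1. The means were -1.81 (SE 0.30, limma adjusted p = 0.000246) for Gjb2 and -2.01 (SE 0.37, limma adjusted p = 0.00104) for Gjb6, folds of 3.51 and 4.02 lower. Both calls held without each array in turn, with adjusted p up to 0.00336 and 0.0085.

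The same connexins split by array in primary cells at 24 h. Gjb2 read -0.23, 0.24, -0.12, 0.15, -3.13 and -1.87, and Gjb6 read -0.23, -0.47, -0.22, -0.13, -3.71 and -3.38. The low pair is replicates 5 and 6, again the arrays with mAdb experiment IDs above 39000. Over the 4 arrays with lower IDs the mean of Gjb2 was 0.01 (SD 0.22) and that of Gjb6 -0.26 (SD 0.15), against -2.50 and -3.55 over the 2 with higher IDs. The part of the array set in this split was not tested. The whole group gave -0.83 for Gjb2 (adjusted p = 0.22) and -1.36 for Gjb6 (adjusted p = 0.0528). Both ID sets were low in ras cells at 24 h, -1.66 and -2.12 for Gjb2 and -1.64 and -2.73 for Gjb6.

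In ras cells at 6 and 48 h the connexin pair was more scattered. In primary cells at 48 h Gjb2 read -0.136, 0.222 and -0.595, and Gjb6 read -0.741, -0.13 and -0.415, neither called. These primary 48 h arrays all have mAdb experiment IDs above 39000, as does the low pair at 24 h. At 6 h in ras cells Gjb6 was below 0 on 6 of 7 arrays, from -2.36 through a median of -1.09 to 0.20, with a mean of -0.95 (adjusted p = 0.184). At 48 h in ras cells Gjb6 read -1.32, -3.11, -0.01 and -0.94 (adjusted p = 0.0835) and Gjb2 read -0.23, -2.70, 0.60 and -0.55. Over the 49 arrays the 2 genes had a Pearson correlation of 0.82, which is a description over arrays that share cells, times and RNA.

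Gja1, which encodes connexin 43, the connexin of proliferating keratinocytes, fell in primary cells. At 24 h its lowest, median and highest values were -1.09, -0.88 and -0.50, all 6 below 0. The mean was -0.84 (SE 0.16, limma adjusted p = 0.00204), and the call held without each array in turn (adjusted p up to 0.0173). It was lost with the reversed arrays turned and a dye term (-0.52, adjusted p = 0.431). At 48 h Gja1 read -0.42, -1.18 and -0.50, with a mean of -0.70 (SE 0.23, limma adjusted p = 0.0443) that was lost without any 1 of the 3 arrays. In ras cells Gja1 ran from -0.53 to 0.44 at 24 h and read -0.23, -1.12, -0.25 and 0.93 at 48 h, neither called. Gjb5, which encodes a connexin of stratified epithelia, rose in ras cells at 6 h. Its values ran from 0.37 through 0.66 to 1.09, above 0 on 7 of 7 arrays, with a mean of 0.69 (SE 0.16, limma adjusted p = 0.0107) that was lost without replicate 8 (adjusted p = 0.0695). Gjb1 and Gja4 were called in none of the responses, with a lowest mean of -0.70 for Gjb1 at 48 h in primary cells, where 1 array at -2.14 stood apart.

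Among the tight junction genes, Cldn4 was the member called most often. Claudin 4 is a sealing claudin of suprabasal and simple epithelia. Its values in primary cells at 24 h ran from 0.11 through a median of 0.66 to 0.82, above 0 on 6 of 6 arrays, with a mean of 0.60 (SE 0.15, limma adjusted p = 0.0241). The call was lost without replicates 1, 2, 3, 4 or 5 (adjusted p up to 0.0892). At 48 h in primary cells it read 0.98, 0.77 and 0.80, with a mean of 0.85 (SE 0.21, limma adjusted p = 0.00689) that was lost without replicate 1 or without replicate 2 (adjusted p up to 0.077). Ras cells at 6 h ran from 0.09 through 0.71 to 1.14, above 0 on 7 of 7 arrays, with a mean of 0.71 (SE 0.14, limma adjusted p = 0.00254). Ras cells at 24 h ran from 0.37 through 0.77 to 1.09, above 0 on 6 of 6 arrays, with a mean of 0.73 (SE 0.15, limma adjusted p = 0.0019). These 2 ras calls held without each array in turn. Ras cells at 48 h read 0.80, 0.67, 1.498 and 0.18, with a mean of 0.79 (SE 0.18, limma adjusted p = 0.0119) that was lost without replicate 1 or without replicate 3 (adjusted p up to 0.181). Cldn4 was thus called higher in 5 of the 8 responses, by folds of 1.51 to 1.80. With the reversed arrays turned and a dye term, 4 of these calls were lost: the mean was 0.24 at primary 24 h (adjusted p = 0.541) and 0.44, 0.42 and 0.22 at ras 6, 24 and 48 h (adjusted p = 0.219, 0.217 and 0.928).

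Cldn1, the claudin on which the epidermal barrier depends, went the other way. Primary cells at 48 h read -0.99, -1.48 and -0.68, with a mean of -1.05 (SE 0.23, limma adjusted p = 0.00258), which was lost without replicate 2 (adjusted p = 0.109). Ras cells at 6 h ran from -1.26 through -0.56 to -0.25, below 0 on 7 of 7 arrays, with a mean of -0.58 (SE 0.15, limma adjusted p = 0.033). That call was lost without replicates 1, 3, 6, 7 or 8 (adjusted p up to 0.157). At 48 h in ras cells Cldn1 read -0.48, 0.10, -0.82 and 0.35 and was not called. The other 7 tight junction members (Cldn5, Cldn6, Cldn7, Cldn8, F11r, Tjp1, Tjp3) were called in none of the responses. Tjp1, which encodes the scaffold ZO-1, had single extreme values: -3.49 on primary 48 h replicate 2, -4.73 on ras 6 h replicate 8 and -6.32 on ras 48 h replicate 1, with all other values in those groups at -1.37 or above. The reversed primary 48 h arrays, replicates 3 and 4, read 3.96 and 0.06 for Tjp1 at their deposited sign.

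Among the adherens junction genes, the E-cadherin gene Cdh1 was not called in any response and the P-cadherin gene Cdh3 fell in primary cells. Cdh1 read -0.01, 0.14 and -0.79 at 48 h in primary cells, a mean of -0.22 (SE 0.25, limma adjusted p = 0.687). Ras cells at 48 h read 0.38, 0.74, 0.56 and 0.09, all above 0, with a mean of 0.44 (SE 0.22, limma adjusted p = 0.268). The 8 means of Cdh1 ran from -0.22 to 0.44. Cdh3, whose product marks basal cells and hair follicles, read -0.63, -2.23 and -1.28 at 48 h in primary cells. Its mean was -1.38 (SE 0.27, limma adjusted p = 0.000634), a fold of 2.60 lower, and became -0.95 without replicate 2 (adjusted p = 0.0944). Cdh3 in ras cells read 0.33, 0.35, -0.70 and -0.24 at 48 h, and of these only -0.70 lay below the highest primary value.

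Nectins, which start contacts that cadherins then join, moved in different directions. Nectin3 rose at 48 h in primary cells, where it read 0.67, 0.34 and 1.25 (mean 0.75, SE 0.18, limma adjusted p = 0.00544, lost without replicate 5 at 0.154). It also rose at 6 h in ras cells, where it ran from -0.14 through 0.60 to 0.88, above 0 on 6 of 7 arrays (mean 0.45, SE 0.12, limma adjusted p = 0.0363). That call was lost without replicates 1, 3, 4, 7 or 8 (adjusted p up to 0.205). Nectin1 fell at 48 h, reading -1.03, -0.94 and -0.37 in primary cells (mean -0.78, SE 0.24, limma adjusted p = 0.0291) and -0.52, -0.71, -2.24 and -0.04 in ras cells (mean -0.88, SE 0.20, limma adjusted p = 0.0119). The primary call was lost without replicate 1 or without replicate 2 (adjusted p up to 0.247) and the ras call without replicate 3, where the mean was -0.43 (adjusted p = 0.312). With the reversed arrays turned and a dye term the means were -0.29 in primary and -0.46 in ras cells (adjusted p = 0.521 and 0.449). Its 3 probes disagreed in size, with means of -0.35, -1.73 and -0.28 in primary cells at 48 h, while the ras means were -0.08, -0.73 and -1.84. Taking the probe of widest spread gave -0.27 in primary (adjusted p = 0.819) and -1.83 in ras cells (adjusted p = 0.0118). Ctnnal1, a relative of α-catenin, read -0.65, -0.46 and -0.56 at 48 h in primary cells (mean -0.55, SE 0.18, limma adjusted p = 0.0391), which was lost without any 1 of the 3 arrays (adjusted p up to 0.208). The β-catenin gene Ctnnb1 read 0.64, 0.49, 0.55 and 0.58 at 48 h in ras cells, a mean of 0.56 (SE 0.17) with an adjusted p of 0.0598.

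Of the 5 desmosomal genes, 2 were called. Pkp1, a plakophilin of suprabasal desmosomes, fell in primary cells at 24 h. It ran from -1.34 through -0.68 to -0.12, below 0 on 6 of 6 arrays, with a mean of -0.71 (SE 0.18, limma adjusted p = 0.0298) that was lost without replicates 1, 2 or 6 (adjusted p up to 0.267). Pkp1 had a mean of -0.10 in ras cells at 24 h. Pkp2, another plakophilin, read 1.23, 0.28, 0.18, 0.61, 7.62 and -0.07 in ras cells at 1 h, where 1 array stood far above the rest and the adjusted p was 0.349. Dsg2, the desmoglein of simple and basal epithelia, was called lower in ras cells at 24 h on 1 array alone: it read -8.70, -0.21, -0.14, -0.81, 0.01 and 0.06. The mean of -1.63 (SE 0.52, limma adjusted p = 0.0391) became -0.22 without replicate 1 (adjusted p = 0.58). That array is also the extreme one for Krt33b and has the widest spread of all, an SD of 1.81 over its probes. Jup, which encodes plakoglobin of desmosomes and adherens junctions, was above 0 on 7 of 7 ras arrays at 6 h, from 0.17 through 0.46 to 0.77, with a mean of 0.48 and an adjusted p of 0.111.

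Epcam, a calcium-independent adhesion molecule of simple epithelia and progenitor cells, was higher with TGF-β1. At 48 h in primary cells it read 0.92, 1.73 and 1.18, all above 0.9, with a mean of 1.28 (SE 0.31, limma adjusted p = 0.00522), a fold of 2.43. The call was lost without replicate 2 (adjusted p = 0.137). In ras cells it rose at 6 h, running from 0.27 through 0.75 to 1.12, above 0 on 7 of 7 arrays (mean 0.74, SE 0.20, limma adjusted p = 0.0424), and lost the call without any 1 array other than replicate 7 (adjusted p up to 0.162). At 24 h in ras cells it was above 0 on 6 of 6 arrays, from 0.16 to 1.18 (mean 0.59, adjusted p = 0.0741), and at 48 h it read 1.22, -0.51, 2.06 and 0.57 (adjusted p = 0.0679). Pard3, a polarity scaffold of tight junctions, rose in ras cells at 24 h. It ran from -0.10 through 0.60 to 1.42, above 0 on 5 of 6 arrays, with a mean of 0.59 (SE 0.18, limma adjusted p = 0.0311) that was lost without replicates 1, 3 or 7 (adjusted p up to 0.148).

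**Figure D3:**
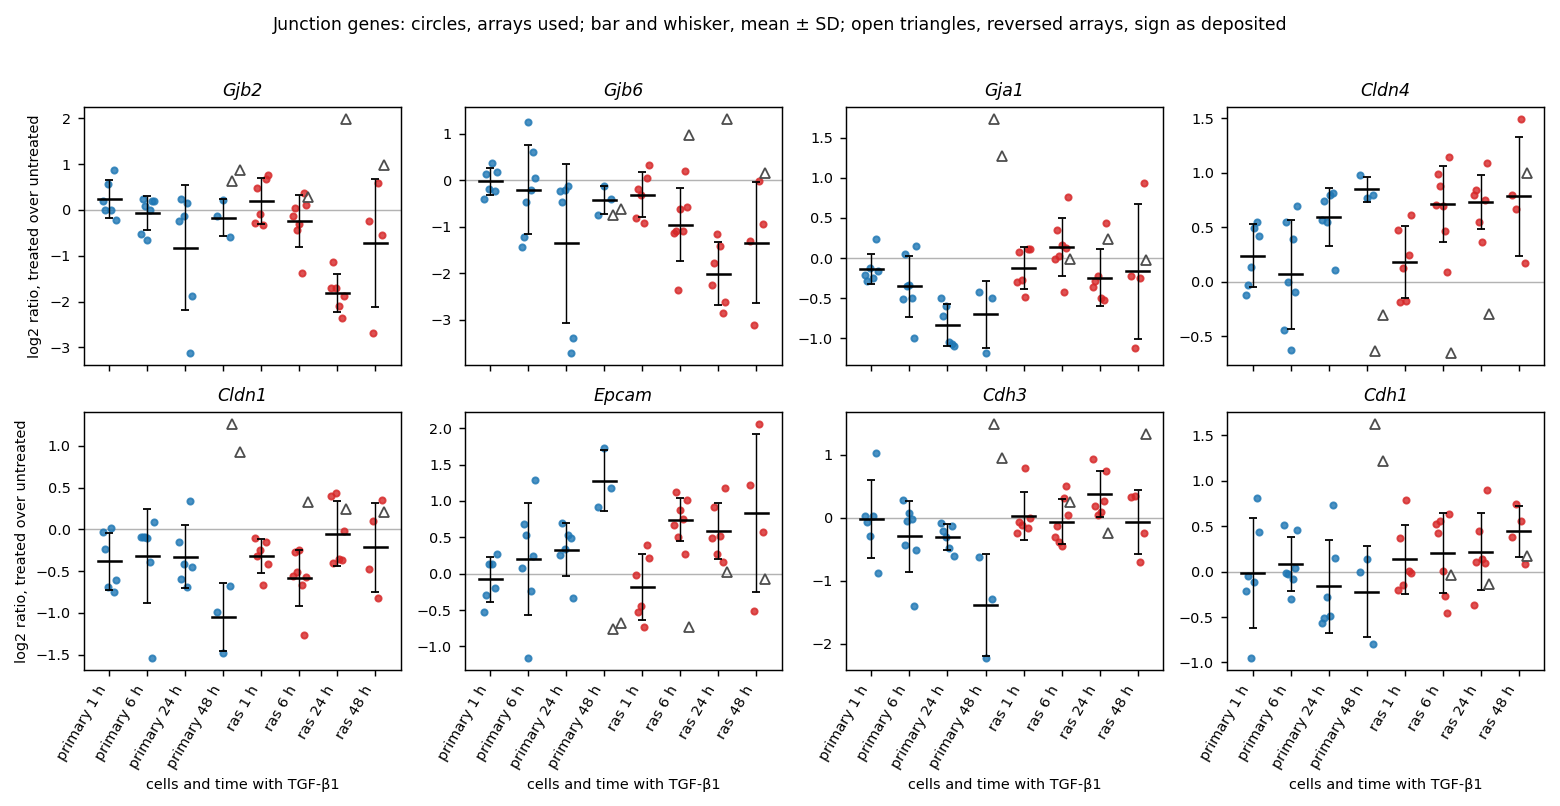
Log2 ratio, treated over untreated, of 8 junction genes on every Balb/c array (blue, primary; red, ras), with the mean and SD of each group over the arrays used; open triangles are the 5 reversed arrays at their deposited sign. Gjb2 and Gjb6 lie below -1 on all 6 ras arrays at 24 h, and on 2 of 6 primary arrays, and Cldn4 lies above 0 on all arrays of both kinds of cells at 24 and 48 h other than reversed ones.

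The ras-minus-primary difference in response was tested at each time, and 0 of 55 members were called at 1, 6, 24 or 48 h (limma, adjusted p under 0.05), where 0%, 0%, 0.0449% and 0.202% of all features were called (0.0337% higher at 24 h and 0.0337% at 48 h, 0.0112% and 0.168% lower). The members with an unadjusted p under 0.05 numbered 3, 7, 9 and 7, where 4.17%, 4.51%, 10.3% and 6.69% of all features had one. The smallest adjusted p among members was that of Cdh3 at 48 h, whose difference was 1.31 (SE 0.36, limma adjusted p = 0.138), from means of -1.38 in primary and -0.07 in ras cells. Krt19 at 48 h differed by 1.39 (SE 0.39, limma adjusted p = 0.153). Cldn1 at 48 h differed by 0.83 (SE 0.31, limma adjusted p = 0.404), Gja1 at 24 h by 0.59 (SE 0.23, limma adjusted p = 0.451) and Gjb2 at 24 h by -0.98 (SE 0.43, limma adjusted p = 0.469). Cldn4 at 6 h differed by 0.64 (SE 0.19, limma adjusted p = 0.996). At 48 h 15 of 19 keratins and 25 of 36 junction genes had a difference above 0, with medians of 0.35 and 0.22. The median of all features was -0.0024, and their share above 0 was not counted. Primary 48 h replicate 2, low for Krt16 (-3.70) and Krt19 (-3.57), is 1 of the 3 primary arrays behind these differences. Without primary 48 h replicate 1, Cdh3 (1.69, limma adjusted p = 0.0289) and Krt19 (1.98, limma adjusted p = 0.0164) were called. The share of all features called without that array was not counted. With array weights Gjb2 (-1.38, limma adjusted p = 0.015), Gjb6 (-1.43, limma adjusted p = 0.0462) and Krt8 (1.03, limma adjusted p = 0.0396) were called at 24 h, and Ctnna1 (0.62, limma adjusted p = 0.0452) at 6 h. With these weights 1.53% of all features were called at 24 h and 0.719% at 6 h. That 0 members passed with all arrays weighted equally does not show that the responses were alike.

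**Figure D4:**
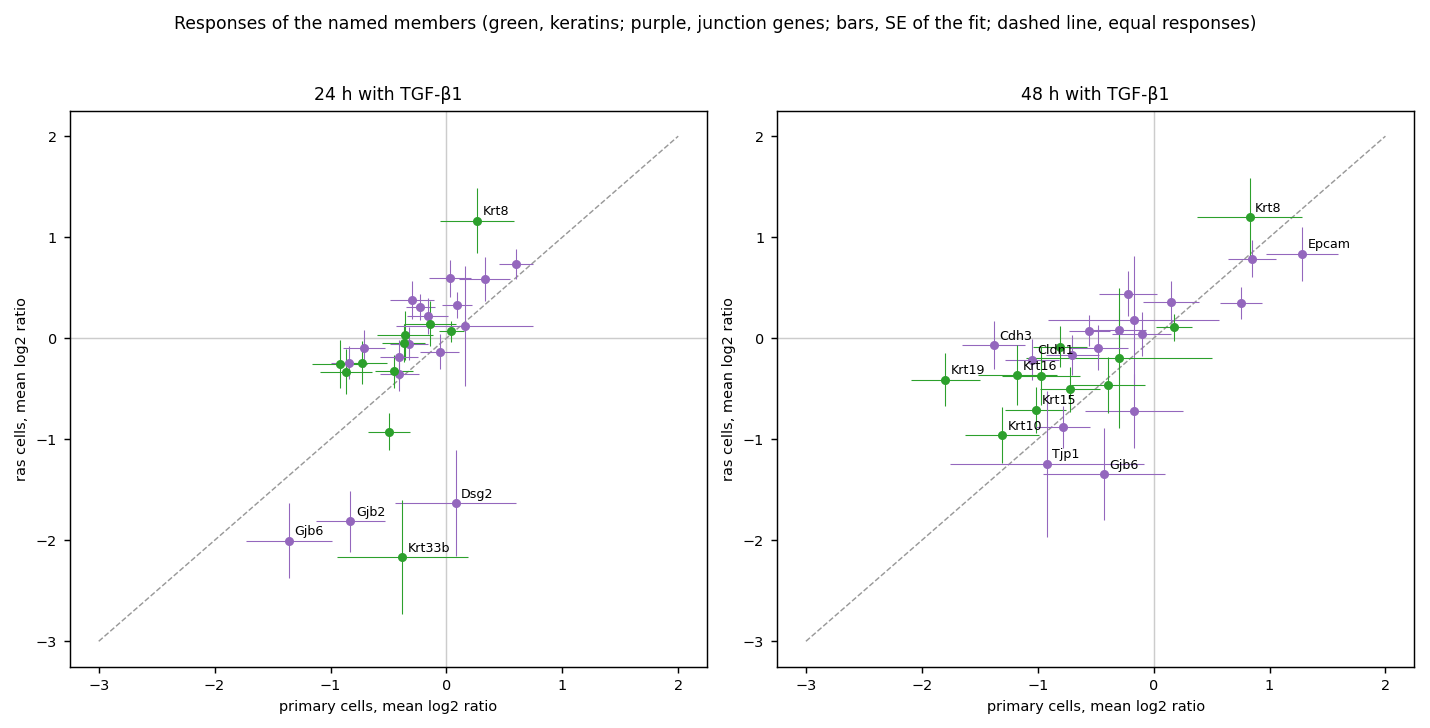
Mean log2 ratio of the 28 named members in primary (horizontal) and ras cells (vertical) at 24 h (left) and 48 h (right), with the SE of the fit as bars and a dashed line where both responses are equal; members past 1 in either direction are labelled. At 24 h Gjb2, Gjb6, Dsg2 and Krt33b lie lowest on the ras axis, and at 48 h Krt19 and Cdh3 lie to the left of the line.

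Genes that work beside the members were counted in lists. Of all features, 0.0112%, 1.35% and 8.64% were called at 6, 24 and 48 h in primary cells. The shares in ras cells were 1.72%, 10.5% and 3.56%. Whether the count of a list exceeded these shares was not tested. Of 8 cornified envelope genes measured, 3 fell at 24 and at 48 h in both kinds of cells: Ppl, a plakin that links desmosomes to the envelope, and the small proline-rich proteins Sprr1a and Sprr2a1. At 48 h Ppl, Sprr1a and Sprr2a1 had means of -1.12, -1.49 and -2.32 in primary cells. The ras means were -0.82, -1.84 and -2.22. Of 8 epithelial transcription regulators measured, 4 fell at 48 h in primary cells: Klf5 (-1.18), Trp63 (-1.005), Grhl1 (-0.80) and Klf4 (-0.73). Of the 8, Grhl1 (-0.85) was the 1 that fell in ras cells at 48 h. At 24 h Klf5 (-0.87) fell in primary cells, and Grhl1 (-0.73) and Klf4 (-0.48) in ras cells. At 6 h Klf5 fell in both (-0.89 in primary, -0.59 in ras cells). Of 7 mesenchymal adhesion genes measured, 3 rose at 48 h in primary cells, the N-cadherin gene Cdh2 (1.94), S100a4 (2.39) and Sparc (1.17), and 1 in ras cells, Cdh11 (1.10). Of 10 junction repressor genes and their Id partners measured, Twist1 rose in primary cells at 48 h (1.28) and Snai2 in ras cells at 6 and 24 h (0.70 and 0.66). Id1 fell at 48 h in primary (-1.99) and ras cells (-1.41), and Id3 fell at 48 h (-0.96) and Id2 at 24 h (-0.87) in primary cells. Of 7 hemidesmosome genes measured, Lamb3, a chain of the basement membrane laminin of skin, rose in ras cells at 6 h (1.02), Cd151 and Itgb4 at 24 h (0.50 and 0.51) and Cd151 at 48 h (0.68), with 0 called in primary cells. The list of 13 measured TGF-β target genes had medians from 0.14 to 0.52 over the 8 responses. Of these targets 1, 0, 2 and 4 rose in primary cells at 1, 6, 24 and 48 h, and 4, 5, 2 and 3 in ras cells. At 1 h 0.0112% of all features were called in primary and 0.0786% in ras cells. Only at ras 24 h did any target fall: Klf10 (-0.57) and Smad6 (-1.22) fell there, and Cdkn2b (0.75) and Thbs1 (0.73) rose.

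Markers of other cell types moved in primary cells at 48 h, where 5 keratins fell. Of 10 immune markers measured 3 rose, Lyz2 (2.59), Tyrobp (1.01) and Fcer1g (0.77), and 1 fell, Cd8a (-1.74), with means from -1.74 to 2.59 and a median of 0.25. Of 9 fibroblast markers measured 2 rose, Col1a2 (1.83) and Mfap5 (1.77), with means from -0.65 to 1.83 and a median of 0.27. Of 3 melanocyte and 5 endothelial markers measured 0 were called there. In ras cells at 48 h 1 immune marker rose, Lyz2 (0.96), and 0 of 9 fibroblast markers were called. At 24 h in primary cells, where Krt71, Krt79, Gja1 and Pkp1 fell, Lyz2 rose (0.92) and the other 9 immune and 9 fibroblast markers were not called. At 24 h in ras cells Lyz2 rose (0.54), Itgam fell (-2.03), and Sox10 of the melanocyte list fell (-1.59). The part of these cells in the keratin and junction values was not tested, and fewer cells of a type and less RNA per cell cannot be told apart in such samples.

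The Smad3 arrays gave 1 array for each genotype and kind of cell in the dye orientation used, so there is no test and no replicate check. A knockout-minus-wild-type difference past 1 in size was seen for 12 of 55 members in primary cells (7 higher, 5 lower), where 13% of all features passed it, and for 6 members in ras cells (2 higher, 4 lower), where 8.42% did. Past 1 with the same sign in both kinds of cells were Gja1, Krt8 and Tjp3. Gja1 read 1.14 in Smad3+/+ and -1.69 in Smad3-/- primary cells, and 0.92 and -2.56 in ras cells. Krt8 read -1.25 and -2.79 in primary cells, while ras cells read 1.75 and -0.20. Tjp3, a tight junction scaffold, read -0.52 and -1.66 in primary cells, while ras cells read 0.06 and -0.95. The reversed Smad3-/- arrays, at their deposited sign, read -3.47 and -0.14 for Gja1 in primary and ras cells. They read -1.10 and -0.11 for Krt8, and -1.115 and -0.81 for Tjp3. In Smad3+/+ cells Gja1 was thus above 0 where Balb/c primary cells were below it, and Cldn4, at 1.48 and 0.89, was above 0 in both strains. Gjb2 and Gjb6 read 0.04 and -0.58 in Smad3+/+ and 1.58 and 0.98 in Smad3-/- primary cells, and -0.34 and -0.78 against 0.31 and 0.02 in ras cells.

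The arrays of reversed dye were left out because it is not stated whether their sign was already turned. At their deposited values, members called in a group had the opposite sign on its reversed array in 5 of 5 cases at ras 6 h and 6 of 8 at ras 24 h, against 93.5% and 46.0% of all called features. At primary 48 h 12 of 13 called members were opposite on both reversed arrays, where 46.3% of called features were, and Nectin1 was the exception. At ras 48 h 0 of 3 were opposite, against 40.4% of called features. Gjb2 and Gjb6, for example, read 1.998 and 1.32 on the reversed ras 24 h array. Clu, the clusterin gene and no member, was below 0 on all 7 reversed arrays, from -0.51 to -2.41, and above 0 on all but 2 of the Balb/c arrays used. Over all features, however, the reversed arrays correlated at 0.48 and 0.41 with the other Smad3-/- array of the same cells, at 0.13 with the mean of the other arrays at ras 48 h, and between -0.07 and 0.07 in the other groups. Clu and these correlations do not point the same way, so whether those signs were turned cannot be told here. All arrays used share 1 dye orientation, so a bias of a gene towards a dye cannot be told apart from its response.

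Krt5 and the activation keratin Krt6a followed each other closely on most arrays. Krt16 had a small median difference from Krt5 but departed widely on some arrays. It read -3.70 against 0.08 for Krt5 on primary 48 h replicate 2, and -1.34 against 0.20 on primary 24 h replicate 6. Krt5 and Krt6a differed by under 0.1 on 34 of 49 arrays (Pearson correlation 0.86, a description over arrays). The feature nearest to Krt5 over the 49 arrays was Eef1a1, a translation elongation factor, at a median absolute difference of 0.031, with Krt6a at 0.039 and Krt16 at 0.047, where the median of all features was 0.35. Of the 25 nearest features 14 were named, and 7 of these were ribosomal protein genes. Spot brightness was not analysed here, and whether these nearly equal ratios report the named genes was not tested. Krt6a and Krt16 also have close copies in the genome that a probe may not separate.

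**Figure D5:**
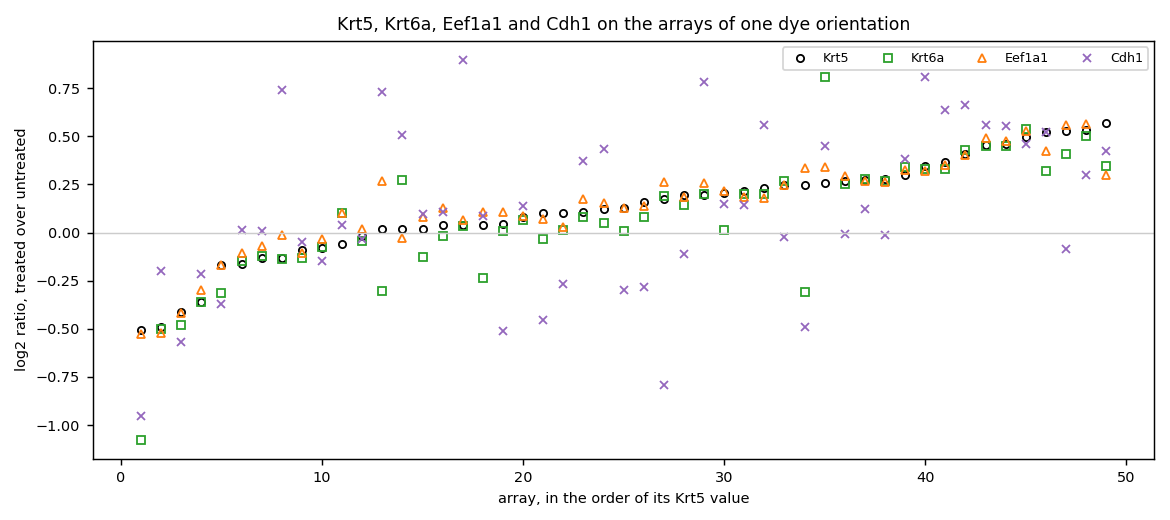
Log2 ratio, treated over untreated, of Krt5, Krt6a, Eef1a1 and, for comparison, Cdh1 on the 49 arrays used, ordered by the Krt5 value. Krt6a and Eef1a1 follow Krt5 on most arrays (median absolute differences 0.039 and 0.031), while Cdh1 is scattered around it (0.253).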

How the data were processed

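Per the labels, total RNA of treated and untreated keratinocytes was labelled with Cy5 and Cy3 and hybridised together. The deposited table holds log ratios of 9596 probes on 56 arrays, none missing, and was read here on the log2 scale. No source names the base, and sizes up to 11.3 are too large for base 10. How the authors corrected background, filtered and normalized is not given in the sources used here. Array medians lay between -0.146 and 0.02 and array SDs between 0.194 and 1.81. That a ratio is treated over untreated is inferred from the order of the channels, and is likely, not certain. With arrays, their number limits the precision.

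Each array was centred on its median, probes of 1 gene were averaged (2 members have several probes), and limma 3.58.1 (R 4.3.3) was run on 49 arrays with 1 mean per group, with two-sided tests adjusted over 8905 features. The fit was tested on simulated data. Named members are those called in any comparison and a set list of well known keratins and junction genes. The members, lists and tests were chosen with earlier results of these data known. Motifs were searched in RefSeq promoters of GRCm38.p6. Alternatives covered the reversed arrays, centring, spread, array weights, ID and replicate blocks, separate fits, probe choice and leaving out arrays.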

Additional observations from a re-analysis of the deposited data

Results flagged for a closer look

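A sample stood far from the rest of its group (Dixon's test at 95%) in 17 of 196 group tests over the 28 named members, 8.67%, where chance gives about 1 in 20. Primary 48 h, with 3 arrays, is too small for this test and was not included; replicate 2 there read -3.70 for Krt16 and -3.57 for Krt19. In ras cells at 24 h replicate 1 was low for Krt33b (-9.82, others -0.99 to -0.25) and Dsg2 (-8.70, others -0.81 to 0.06), and replicate 7 was high for Gja1 (0.44). In primary cells at 24 h replicate 5 was high for Krt8 (2.10) and low for Gjb5 (-1.19) and Krt34 (-0.76), replicate 6 was low for Krt16 (-1.34) and replicate 1 for Krt5 (-0.41). In primary cells at 6 h replicate 6 was low for Cldn1 (-1.54) and Krt71 (-1.33), and replicate 1 for Krt8 (-3.75). In primary cells at 1 h replicate 5 was high for Krt71 (1.23) and Gja1 (0.23). In ras cells at 6 h replicate 7 was low for Cldn1 (-1.26) and high for Krt79 (1.09), and replicate 3 was low for Pard3 (-1.68). In ras cells at 1 h replicate 4 was high for Cdh3 (0.80). The calls touched are those of Krt33b and Dsg2, given with and without replicate 1 above, and of Cldn1 at ras 6 h, which without replicate 7 was -0.47 (limma adjusted p = 0.157).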

How the results depend on the processing

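Counts of called members are given for keratins and then junction genes, with the reported count first. Direction held for all 34 calls under no centring, array weights, scaling to 1 spread, ID and replicate blocks, separate fits, probe choice and leaving out the 2 widest arrays. The cause of the changes below was not tested, except that separate fits and fewer arrays test with less information. Keratins in primary cells at 24 h (2): 0 with reversed arrays as deposited, ID blocks, the replicate block, separate fits, and lower or higher IDs only (chosen after seeing the data); 4 when reversed arrays were turned and dye was modelled, 5 scaled to 1 spread and 8 with array weights. At primary 24 h 0.236% of all features were called as deposited, 1.29% with ID blocks, 1.27% with the replicate block and 0.124% in separate fits. Turned, scaled and weighted, the shares there were 3.66%, 4.38% and 9.32%. Keratins in primary cells at 48 h (5): 0 as deposited and in separate fits, 3 scaled or weighted, and 10 turned. There 8.37% of all features were called as deposited, 0% in separate fits, 4.75% scaled, 8.48% weighted and 7.93% turned. Keratins in ras cells at 6 h (0): 1 weighted. At 24 h (3): 0 in separate fits and 1 with higher IDs only. At 48 h (1): 0 as deposited, turned, with ID blocks or in separate fits, and 2 with the replicate block or without the 2 widest arrays. Of all features 13.4% were called at ras 6 h weighted and 0.0337% at ras 24 h in separate fits. At ras 48 h 1.28% were called as deposited, 0.46% turned, 2.11% with ID blocks and 0% in separate fits. With the replicate block 7.33% were called there, and 5.56% without the 2 widest arrays.

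Junction genes in primary cells at 24 h (3, of which 1 higher): 0 as deposited, in separate fits or with lower IDs only, 1 turned, 5 scaled (1 higher, 4 lower) and 7 weighted. At 48 h (8): 1 as deposited, 2 scaled (1 higher, 1 lower) and 0 in separate fits. In ras cells at 1 h (0) 1 turned; at 6 h (5) 0 as deposited, 1 turned, 8 scaled, 12 weighted and 3 with ID blocks, the replicate block or separate fits. At 24 h (5): 2 turned or with higher IDs only, 3 scaled, with the replicate block or without the 2 widest arrays, and 1 in separate fits. At 48 h (2): 0 turned or in separate fits, 1 scaled and 5 with the replicate block. Ras-minus-primary differences gave 1 member at 6 h and 3 at 24 h with array weights, where 0.719% and 1.53% of all features were called. Over all features primary 24 h counts ran from 11 to 830 against 120, ras 6 h counts from 0 to 1195 against 153, and ras 24 h counts from 3 to 925 against 939. Those at primary 48 h ran from 0 to 988 against 769, and at ras 48 h from 0 to 653 against 317. At ras 1 h 1.2% were called turned. The ras 6 h shares were 0% as deposited, 1.17% turned, 4.27% scaled, 1.63% with ID blocks and 1.53% with the replicate block. At ras 24 h 5.1% were called with the replicate block. Shares for the ID sets were not counted.

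Signs turned with reversed arrays as deposited at primary 48 h for Ctnnal1 (0.12), Gja1 (0.18) and Krt34 (0.0122), and for Dsg2 with higher IDs only (0.0315). Krt16 at primary 48 h ran from -1.835 to 0.089 when 1 array was left out, turning sign without replicate 2. Leaving out 1 array at a time gave keratin counts of 0 to 2, 0 to 6, 2 to 3 and 0 to 2 at primary 24 and 48 h and ras 24 and 48 h, and junction counts of 1 to 3, 2 to 5, 1 to 4, 3 to 6 and 0 to 4 at primary 24 and 48 h and ras 6, 24 and 48 h. For differences at 48 h it gave 0 to 2. Of 19 same-numbered primary and ras pairs 5 correlated over 0.1 (-0.23 to 0.39). Differently numbered pairs were not set beside them, so whether replicate numbers pair the samples cannot be told. No pairing was used in the fit.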
